A study of Homo sapiens with 4 samples.

Results

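Notch signalling was described through 10 genes of the pathway, chosen by symbol and all matched in the deposited table of 30716 genes: the receptors NOTCH1, NOTCH2 and NOTCH3, the ligands JAG1, JAG2 and DLL1, the DNA-binding factor RBPJ, its coactivator MAML1, and the target genes HES1 and HEY1. All 10 passed the filter on low counts. RNA was sequenced from KYSE30, an established line of human esophageal squamous cell carcinoma (ESCC), in 2 libraries of cells with a short hairpin RNA against the zinc finger factor YY1 (shYY1, labelled YY1 knockdown) and 2 libraries of cells with a negative-control hairpin (shNC). Per the labels, all cells were of this 1 line, were grown in DMEM with serum and carried their hairpin stably after puromycin selection. The sources used here give no hairpin sequences, and effects of the loss of YY1 cannot be told apart from other effects of either hairpin. Nothing in the labels says that replicates were separate cultures, so the spread behind each p-value is that between these libraries and may be technical.

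Notch receptors are single-pass membrane proteins that are cut when a ligand on a neighbouring cell binds and pulls on them. The released intracellular part enters the nucleus and joins RBPJ and a Mastermind protein to switch on targets such as the HES and HEY repressors. In squamous epithelia such as skin and esophagus the pathway is known for promoting differentiation, and loss-of-function mutations of NOTCH1 are common in squamous carcinomas.

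The promoters of members are shown because RBPJ and YY1 both bind DNA directly and their short binding words can be read there. Windows of 300 bases, 250 before and 50 from the annotated start, came from RefSeq (GRCh38.p14). The search covered 12 windows of 8 of the 10 genes. DLL1 and the target gene HEY1 were not searched, so nothing is known here of the words in their promoters. The words searched, on both strands, were TGGGAA, the core of RBPJ sites, CGTGGGAA, a longer RBPJ word that contains it, and AANATGGC, a YY1 word. Positions count from 1 at the start base, with bases before it negative. In the sequences below, written 5′ to 3′ along the gene's strand, capitals mark the words found.

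HES1 (chr3:194135898-194136197, plus strand): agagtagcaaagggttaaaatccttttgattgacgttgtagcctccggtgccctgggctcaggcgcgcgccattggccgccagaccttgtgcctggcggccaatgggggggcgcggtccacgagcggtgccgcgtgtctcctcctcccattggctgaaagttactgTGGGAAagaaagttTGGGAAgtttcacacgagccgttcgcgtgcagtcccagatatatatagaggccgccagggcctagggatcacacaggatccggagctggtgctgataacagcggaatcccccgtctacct
RBPJ, window at chr4:26319496-26319795, plus strand: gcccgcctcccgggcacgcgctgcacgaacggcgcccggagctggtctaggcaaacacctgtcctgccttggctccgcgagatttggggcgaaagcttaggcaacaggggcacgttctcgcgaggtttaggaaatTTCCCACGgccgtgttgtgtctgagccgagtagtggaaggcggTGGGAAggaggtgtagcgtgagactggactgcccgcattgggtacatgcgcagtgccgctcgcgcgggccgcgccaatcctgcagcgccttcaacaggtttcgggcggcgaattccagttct
RBPJ, window at chr4:26320764-26321063, plus strand: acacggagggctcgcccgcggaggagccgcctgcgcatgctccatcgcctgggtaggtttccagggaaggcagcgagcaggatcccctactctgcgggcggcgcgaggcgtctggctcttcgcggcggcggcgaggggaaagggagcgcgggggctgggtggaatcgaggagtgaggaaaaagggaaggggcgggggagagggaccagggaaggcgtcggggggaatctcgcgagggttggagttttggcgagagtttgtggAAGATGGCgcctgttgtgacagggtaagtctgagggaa
MAML1 (chr5:179732572-179732871, plus strand): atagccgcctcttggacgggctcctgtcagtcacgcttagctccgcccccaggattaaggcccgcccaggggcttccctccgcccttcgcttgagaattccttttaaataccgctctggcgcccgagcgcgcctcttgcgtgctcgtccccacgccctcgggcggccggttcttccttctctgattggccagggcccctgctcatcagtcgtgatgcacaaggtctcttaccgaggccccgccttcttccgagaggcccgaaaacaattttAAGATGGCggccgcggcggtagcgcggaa
JAG1 (chr20:10673950-10674249, minus strand): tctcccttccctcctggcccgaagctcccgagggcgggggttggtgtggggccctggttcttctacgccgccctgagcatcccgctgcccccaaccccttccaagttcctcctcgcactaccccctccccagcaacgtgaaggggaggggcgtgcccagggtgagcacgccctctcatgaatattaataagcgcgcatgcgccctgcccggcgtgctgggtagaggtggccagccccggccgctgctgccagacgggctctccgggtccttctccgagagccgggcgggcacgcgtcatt

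The HES1 window held TGGGAA at -84 to -79 and again at -70 to -65, both in the direction of the gene. Of 34943 promoter windows of this length, 24.0% held TGGGAA at least once and 3.79% held it at least 2 times. The first RBPJ window printed held TGGGAA at -72 to -67 and CGTGGGAA on the opposite strand at -115 to -108, a word found in 0.824% of all windows. AANATGGC stood at 13 to 20 in the other RBPJ window printed, and a further window of this gene, with a start downstream, shares that site. MAML1 held AANATGGC at 22 to 29, and 6.57% of all windows held it. None of the 3 words was in the JAG1 window, nor in 6 other windows, those of JAG2, NOTCH1, NOTCH2 and NOTCH3 and 2 further ones of RBPJ. JAG1 is printed because it was the member whose RNA changed. These matches describe letters in a window and are not binding data.

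Total counts were 67390336 to 72499865 per library, and YY1 checked the labels. It had 2606 and 2344 counts in shYY1 libraries, against 8147 and 7960 in shNC libraries, a log2 fold change of -1.67 ± 0.088 (SE; edgeR quasi-likelihood test, adjusted p = 6.18e-05 over 18035 tested genes). The labels' extraction text speaks of retinas, so markers were measured: the 2 of 10 listed retina markers in the table, NRL and ARR3, reached at most 0.0825 FPKM (fragments per kilobase of gene length, scaled to sequencing depth). Part of each marker list of other cell types was in the table and analysed. Summed levels were 0.624 to 0.672 FPKM in shYY1 and 0.708 to 0.841 FPKM in shNC for 5 endothelial markers, 0.699 to 0.835 and 0.653 to 0.796 FPKM for 4 stromal markers, and 0.134 to 0.537 and 0.411 to 0.492 FPKM for 5 immune markers, with PTPRC and CD3E at 0 counts in all 4 libraries. A list of 10 epithelial markers was drawn up for squamous epithelium, but EPCAM and CDH1 in it are not specific to that type. EPCAM (83.7 to 90.1 FPKM), CDH1, DSP, KRT6A and TP63 were well above these levels. DSG3 was at 2.29 to 2.77 FPKM and KRT14 at 1.34 to 1.72 FPKM. In contrast, KRT5 was at 0.0740 to 0.126 FPKM and KRT17 at 0.324 to 0.470 FPKM. PKP1 had 0 counts in 1 library of each group and at most 0.0253 FPKM. None of the 17 tested markers of these 5 lists passed the test between the groups.

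JAG1, the Jagged1 ligand, was higher in shYY1 cells and was the 1 member of 10 that passed edgeR's test at an adjusted p under 0.05. The test called 9.94% of all 18035 tested genes, 5.05% of them higher and 4.90% lower in shYY1, and the higher genes were 50.8% of the calls (40.3% with library totals alone in place of TMM). The 1 call among 10 members is thus close to the background and says nothing particular about the group. In 5 of the 10 members the shYY1 libraries did not overlap with the shNC libraries, 2 of them with shYY1 above (26.8% of all tested genes) and 3 with shYY1 below (28.1%), which together was so for 54.9% of all tested genes. At an unadjusted p under 0.05 the count was again 1 of 10, beside 25.1% of all. The median log2 fold change of the members was -0.02, beside -0.01 over all tested genes, and the median absolute value was 0.12, beside 0.26. These shares and medians of all tested genes include genes at low counts and were not matched to the members' levels. At 5 CPM or more in 2 libraries, 2412 of 10708 genes were called. JAG1 was again the 1 member called there, and DLL1 was not tested. In whole-cell RNA, fewer cells with a transcript and less of it per cell cannot be told apart.

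**Figure D1:**
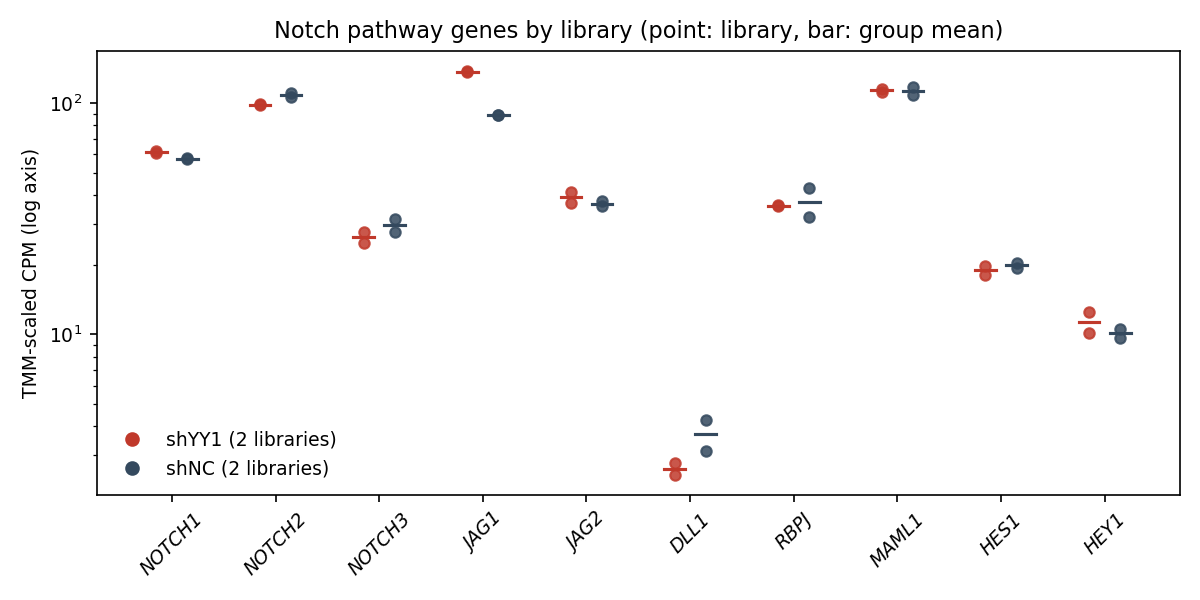
TMM-scaled counts (CPM, counts relative to library size; log axis) of the 10 Notch pathway genes in each library; points are libraries, bars are group means, shYY1 left and shNC right. JAG1 stands at 136 and 138 CPM in shYY1 against 88.5 and 88.9 CPM in shNC, while the other genes differ by less.

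**Figure D2:**
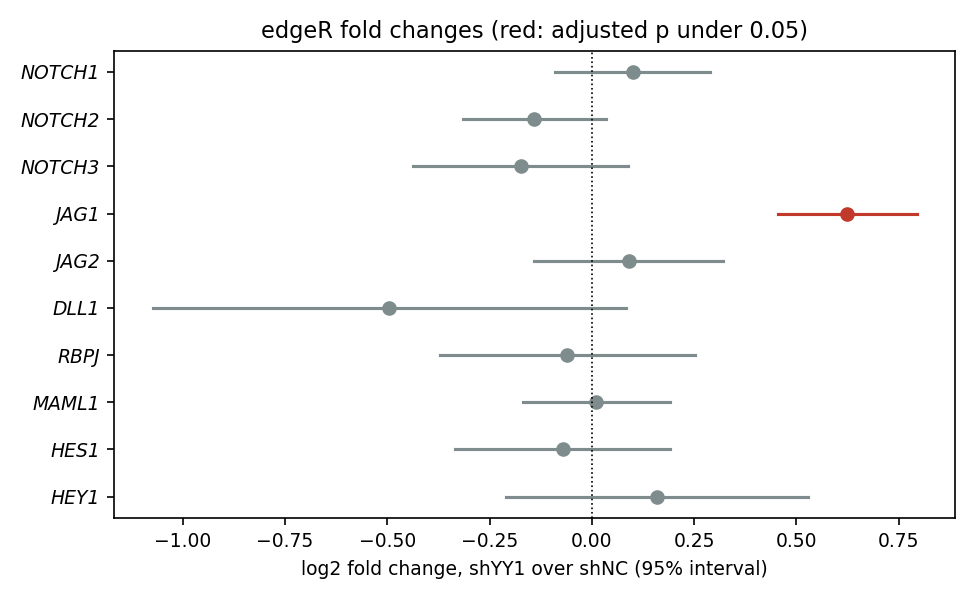
Log2 fold changes of shYY1 over shNC from edgeR with 95% intervals for the 10 genes; red marks an adjusted p under 0.05. The interval of JAG1 runs from 0.45 to 0.79, and the other 9 intervals include 0.

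Among the ligands, JAG1 (ENSG00000101384, chromosome 20, 10637684 to 10673999, minus strand) had 9533 and 9400 counts in shYY1 libraries, against 6198 and 6410 in shNC libraries. In CPM, counts relative to the TMM-scaled library size, it was at 136 and 138 in shYY1 and at 88.5 and 88.9 in shNC. The libraries of a group lay within 2 CPM of each other, and the groups did not overlap. JAG1 rose 1.54-fold, a log2 fold change of 0.62 ± 0.0747 (SE, 95% interval 0.45 to 0.79; edgeR adjusted p = 0.00195, n = 2 each). The deposited FPKM gave 12.19 and 12.04 in shYY1 against 8.36 and 7.96 in shNC. On the log2(FPKM + 1) scale, which understates changes of low genes, limma-trend gave 0.52 ± 0.070 (adjusted p = 0.00909 over 10939 genes at 1 FPKM or more in 2 libraries, of which 6.13% were called higher). On log2(FPKM + 0.1) it gave 0.57 ± 0.0755, and edgeR with library totals alone in place of TMM gave 0.57 ± 0.0694. Why these values lie below 0.62 was not tested.

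JAG2, the other Jagged ligand, was at 41.3 and 36.9 CPM in shYY1 and at 35.7 and 37.7 CPM in shNC. The groups overlapped, and its log2 fold change was 0.09 ± 0.102 (95% interval -0.14 to 0.32, edgeR adjusted p = 0.659). The ratio of JAG1 to JAG2 in FPKM was 2.26 and 2.57 in shYY1 libraries and 1.70 and 1.62 in shNC libraries. The difference between the ligands was not tested, and an exact permutation test of such a ratio, with 2 against 2 libraries, cannot go below p = 0.333. DLL1, a Delta-type ligand, had the lowest level of the 10 genes, with 173 and 189 counts in shYY1 and 219 and 306 in shNC. Both shYY1 libraries lay below both shNC libraries, but the log2 fold change of -0.49 ± 0.255 had an interval of -1.07 to 0.08 and did not pass (edgeR adjusted p = 0.273). The span of DLL1, introns included, shares 15863 bases with that of FAM120B on the opposite strand. FAM120B had 1829 to 2420 counts per library and a log2 fold change of -0.31 ± 0.10 (edgeR adjusted p = 0.0933). The summed exons of DLL1 in GENCODE 29 are 3226 bases, and how many of them are also exons of FAM120B was not measured. With no strand setting known for the counting, reads on any such shared bases cannot be told apart.

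Together the 3 ligands summed to 18.1 and 17.3 FPKM in shYY1 and to 14.0 and 13.8 FPKM in shNC. JAG1 made up 67.3% and 69.6% of that sum in shYY1 and 59.8% and 57.7% in shNC. The share of JAG2 was 29.7% and 27.1% in shYY1 against 35.1% and 35.6% in shNC, and DLL1 made up 2.97% and 3.39% against 5.13% and 6.70%. The larger JAG1 share thus went with smaller shares of both other ligands, which shares of 1 sum must show in part by construction.

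The genes nearest to JAG1 in pattern, by root mean square difference of centred log2 CPM over the 4 libraries, were MKNK2 (0.0166), NDRG1 (0.0174) and ENSA (0.0178), among 10587 other genes with a mean of at least 5 CPM. Their log2 fold changes were 0.62, 0.65 and 0.62. With 4 libraries this nearness says little more than that their fold changes and replicate spread were alike.

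The receptors showed small differences and none passed the test. NOTCH1 (ENSG00000148400, chromosome 9) was at 60.7 and 62.1 CPM in shYY1 and at 57.6 and 57.1 CPM in shNC. Its libraries did not overlap between groups, with shYY1 higher, and its log2 fold change was 0.10 ± 0.083 (95% interval -0.09 to 0.29, edgeR adjusted p = 0.524). NOTCH2 (ENSG00000134250, chromosome 1) was at 97.6 and 99.4 CPM in shYY1 and at 110.9 and 106.3 CPM in shNC, again without overlap but with shYY1 lower. Its log2 fold change was -0.14 ± 0.0768 (95% interval -0.32 to 0.03, edgeR adjusted p = 0.300). NOTCH3 (ENSG00000074181, chromosome 19) was at 24.9 and 27.66 CPM in shYY1 and at 31.6 and 27.71 CPM in shNC, so that shYY1 replicate 2 and shNC replicate 2 nearly met. Its log2 fold change was -0.17 ± 0.116 (95% interval -0.44 to 0.09, edgeR adjusted p = 0.408).

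The 3 receptors summed to 11.1 and 11.2 FPKM in shYY1 and to 12.6 and 11.4 FPKM in shNC. NOTCH1 made up 43.1% and 42.4% of that sum in shYY1 and 37.8% and 39.3% in shNC. NOTCH2 made up 37.0% and 36.2% in shYY1 and 38.8% and 39.1% in shNC, and NOTCH3 20.0% and 21.3% against 23.4% and 21.6%. NOTCH2 counts are uncertain because 4 partial copies of this gene, NOTCH2NLA, NOTCH2NLB, NOTCH2NLC and NOTCH2NLR, are nearly identical to its 5′ part and the rule for shared reads is not given. The copies together had 1017 and 854 counts in shYY1 and 804 and 1208 in shNC, which is 14.8% and 12.6% of the NOTCH2 count in shYY1 and 10.4% and 15.7% in shNC. NOTCH2NLR, for example, had 81 and 0 counts in the shYY1 libraries and 43 and 99 in the shNC libraries, and none of the 4 copies passed the test.

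The nuclear factors did not pass the test either. RBPJ (ENSG00000168214, chromosome 4), which binds DNA for the whole pathway, was at 35.9 and 36.1 CPM in shYY1 and at 42.95 and 32.1 CPM in shNC. The shNC libraries lay on both sides of the shYY1 libraries, and the log2 fold change was -0.06 ± 0.137 (95% interval -0.37 to 0.25, edgeR adjusted p = 0.849). Without shNC replicate 1, the higher of the pair, it was 0.17 (adjusted p = 0.380). In this and every other fit without 1 library, a lone library stands for its group and is assumed to vary like the pair in the other group. MAML1 (ENSG00000161021, chromosome 5), which bridges the Notch and RBPJ complex to acetyltransferases, was at 115.4 and 111.6 CPM in shYY1 and at 116.8 and 108.4 CPM in shNC. The groups overlapped and the log2 fold change was 0.01 ± 0.0793 (95% interval -0.17 to 0.19, edgeR adjusted p = 0.957), with a sign that changed with the scaling.

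The targets HES1 and HEY1, bHLH repressors often read as a sign of Notch activity, did not differ beyond the spread between replicates. HES1 (ENSG00000114315, chromosome 3) was at 19.8 and 18.0 CPM in shYY1 and at 19.4 and 20.3 CPM in shNC. The groups overlapped, with a log2 fold change of -0.07 ± 0.116 (95% interval -0.34 to 0.19, edgeR adjusted p = 0.774). HEY1 (ENSG00000164683, chromosome 8) was at 10.1 and 12.5 CPM in shYY1 and at 10.6 and 9.66 CPM in shNC, with shYY1 replicate 2 above the other 3 libraries. Its log2 fold change was 0.16 ± 0.162 (95% interval -0.21 to 0.53, edgeR adjusted p = 0.615), and -0.00225 without shYY1 replicate 2 (adjusted p = 0.998). With all 4 libraries the upper bounds for HES1 and HEY1 are 0.19 and 0.53, and a p above the threshold does not show that they were equal in the groups.

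Levels can be compared between genes only per length. By mean deposited FPKM in shYY1 the order was MAML1 (15.7 ± 0.667, SD, n = 2), JAG1 (12.1 ± 0.106), HES1 (7.56 ± 0.64), JAG2 (5.04 ± 0.499), NOTCH1 (4.76 ± 0.012), NOTCH2 (4.07 ± 0.0238), RBPJ (3.20 ± 0.0454), NOTCH3 (2.30 ± 0.128), HEY1 (1.69 ± 0.227) and DLL1 (0.562 ± 0.0345). JAG2 and NOTCH1 overlapped between their 2 libraries, and the other neighbours in that order did not. In shNC HES1 (8.23 ± 0.0349) stood above JAG1 (8.16 ± 0.284), with overlapping libraries. NOTCH2 with NOTCH1, and RBPJ with NOTCH3, were the other overlapping neighbours there.

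This order leans on the gene length behind the FPKM. A length was worked out from counts and FPKM, with the summed counts of each library as its depth. It was a median of 1.19 times the summed exons of GENCODE 29, over 9441 genes with at least 500 counts in each library. The depth behind the FPKM is not given, and a factor common to all genes would not change their order. For HEY1 the implied length, any such common factor included, was 6555 bases against 3232 of summed exons. For NOTCH2 it was 23737 against 16807. The transcripts with their longest coding sequence have 2296 and 11389 bases. With CPM per kilobase of that transcript, an alternative chosen after the data were seen, JAG1 came first in shYY1 (23.0), ahead of MAML1 (19.8) and HES1 (11.96). NOTCH2 (8.65) then stood above JAG2 (6.69) and NOTCH1 (6.60), RBPJ (6.14) came next, HEY1 (4.92) stood above NOTCH3 (3.03), and DLL1 (0.824) was again the lowest.

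**Figure D3:**
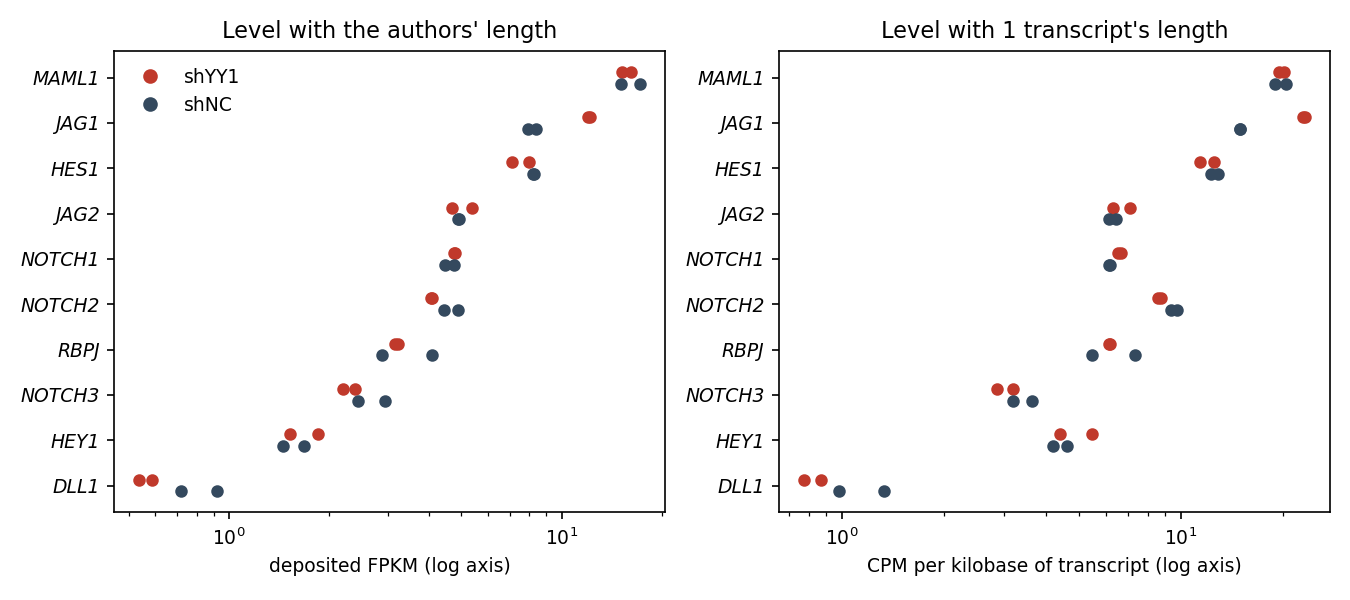
Levels of the 10 genes per length in each library, with deposited FPKM at left and TMM-scaled CPM per kilobase of 1 transcript at right (log axes); red points are shYY1 and dark points shNC. JAG1, at 12.1 FPKM in shYY1, stands apart from its shNC points in both panels, while HEY1 and NOTCH2 move up when 1 transcript's length is used.

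Beyond the 10 members, 84 further genes of the pathway were read in 7 groups by role. Of these, 79 were tested, 8 rose, 3 fell and 68 did not pass. Thus 13.9% were called, beside 9.94% of all tested genes, low ones included. At 5 CPM or more in 2 libraries, 2412 of 10708 genes were called. The pathway genes were not counted at that level, so 13.9% does not show an excess of calls. The median log2 fold change of the 79 genes was 0.00. The lists were drawn up with earlier results of these data known, and no test of a list as a whole was made.

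Enzymes that put sugars on the receptor's outer repeats held 3 calls among 8 tested genes, 1 higher and 2 lower, with a median log2 fold change of -0.36. XXYLT1, which adds the outer xylose to the O-glucose glycan, was at 30.2 and 33.4 CPM in shYY1 and at 49.3 and 54.6 CPM in shNC. It fell by 0.71 on the log2 scale (SE 0.103, edgeR adjusted p = 0.0044). POGLUT1, which attaches that O-glucose, was at 7.89 and 8.96 CPM in shYY1 and at 14.2 and 13.6 CPM in shNC, a log2 fold change of -0.72 ± 0.147 (edgeR adjusted p = 0.017). It lost the call without shYY1 replicate 1 (-0.63, adjusted p = 0.0999) and without shNC replicate 1 (-0.69, adjusted p = 0.0525). GXYLT1, which adds the xylose between them, did not pass (0.30 ± 0.154, edgeR adjusted p = 0.268). POFUT1, which attaches O-fucose, rose by 0.31 ± 0.0761 (edgeR adjusted p = 0.0385) but did not pass without shYY1 replicate 1 (0.34, adjusted p = 0.206) or without shYY1 replicate 2 (0.28, adjusted p = 0.386), nor with robust estimation off (adjusted p = 0.052) or by limma-trend on log2(FPKM + 0.1) (adjusted p = 0.0509). LFNG, the Fringe enzyme that extends O-fucose, stood at 17.0 and 18.0 CPM in shYY1 and at 22.0 and 23.8 CPM in shNC and did not pass (-0.39 ± 0.114, edgeR adjusted p = 0.0667).

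Of 16 tested genes of ubiquitination and trafficking, 1 rose and 1 fell, with a median log2 fold change of -0.14. NEURL1B, a ubiquitin ligase of the Neuralized family that acts on ligands, was at 1.99 and 1.87 CPM in shYY1 and at 5.17 and 4.92 CPM in shNC. It was 2.61-fold lower in shYY1, a log2 fold change of -1.38 ± 0.226 (edgeR adjusted p = 0.0073). FBXW7, which marks the Notch intracellular domain and MYC protein for breakdown, was at 23.9 and 20.7 CPM in shYY1 and at 16.1 and 14.2 CPM in shNC (0.56 ± 0.13, edgeR adjusted p = 0.0306). It lost the call without shYY1 replicate 1 (0.45, adjusted p = 0.208) and without shNC replicate 2 (0.47, adjusted p = 0.0621), as well as with library totals alone (0.50, adjusted p = 0.0597) and by limma-trend on log2(FPKM + 1) (0.29, adjusted p = 0.134). The ubiquitin ligase MIB1, which also acts on ligands, did not pass (-0.21 ± 0.107, edgeR adjusted p = 0.258).

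Of 9 coactivators 1 rose, and of 18 corepressors 1 rose, with medians of -0.07 and -0.08. SNW1, a splicing and transcription cofactor also called SKIP, was at 105 and 101 CPM in shYY1 and at 79.2 and 81.5 CPM in shNC (0.36 ± 0.0783, edgeR adjusted p = 0.0223). The histone deacetylase HDAC1 was at 400.6 and 402.2 CPM in shYY1 and at 272 and 309 CPM in shNC (0.47 ± 0.0883, edgeR adjusted p = 0.0129). Both lost the call without shYY1 replicate 1 (0.34, adjusted p = 0.225 for SNW1; 0.47, 0.0792 for HDAC1) and without shYY1 replicate 2 (0.39, 0.148; 0.47, 0.0827). SPEN and NCOR1, large corepressors of RBPJ-bound genes, did not pass, with log2 fold changes of -0.26 and -0.16. None of the 7 tested further receptors and ligands passed, and their 2 most abundant members were EGFL7, a secreted protein that can bind Notch (40.5 and 40.9 CPM in shYY1, 36.1 and 41.8 CPM in shNC), and CNTN1 (32.2 and 25.6 against 30.9 and 22.6 CPM).

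Among 12 tested further targets 3 rose, 9 gave no call, and the median log2 fold change was 0.10. CDKN1A, the p21 cell cycle inhibitor, was at 130 and 137 CPM in shYY1 and at 75.2 and 94.0 CPM in shNC (0.66 ± 0.109, edgeR adjusted p = 0.00758). MYC was at 166 and 173 CPM in shYY1 and at 117 and 123 CPM in shNC (0.49 ± 0.0762, edgeR adjusted p = 0.00577), and did not pass without shYY1 replicate 2 (0.47, adjusted p = 0.0538). CDKN1A and MYC respond to many pathways. NRARP, a feedback inhibitor of the Notch complex, did not pass. Its level was 21.4 and 20.3 CPM in shYY1 and 19.7 and 21.2 CPM in shNC (0.03 ± 0.112, 95% interval -0.22 to 0.29, edgeR adjusted p = 0.911). HES4 was at 4.63 and 3.12 CPM in shYY1 and at 4.598 and 5.02 CPM in shNC (-0.31 ± 0.245, edgeR adjusted p = 0.492). HES2 and HES6 had log2 fold changes of -0.00 and 0.07. None of the 5 tested HES and HEY genes of this list passed. Of these, HES7 had 39 to 57 counts per library and HEY2 8 to 30. With standard errors of 0.49 and 0.90, their tests say little.

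**Figure D4:**
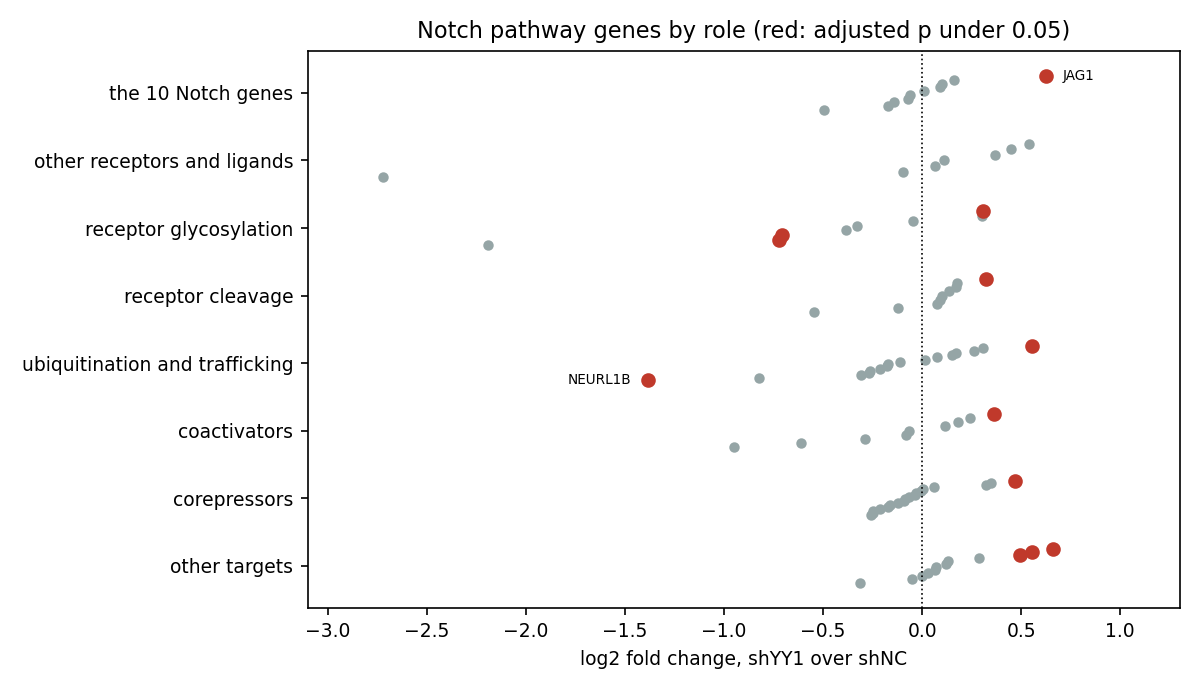
Log2 fold changes of shYY1 over shNC for each tested gene, grouped by role, with 1 point per gene; red points passed edgeR's test at an adjusted p under 0.05. JAG1 at 0.62 is the red point among the 10 Notch genes, and NEURL1B at -1.38 is the lowest red point.

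JAG1 passed the test under 13 of 14 alternative settings, with log2 fold changes of 0.52 to 0.64. The exception was limma-trend on log2(FPKM + 1) with every gene that had an FPKM above 0 in any library, where the adjusted p was 0.0912 and 0 genes were called. Of all genes tested, the share called higher was 5.18% with RLE factors, 3.82% with library totals alone, 3.25% with no filter, 10.5% at 5 CPM or more in 2 libraries, 4.0% with robust estimation off, 8.18% with the replicate block and 8.15% by DESeq2. It was 6.01% by limma-trend on log2(FPKM + 0.1), 2.21% and 2.23% without shYY1 replicate 1 or 2, and 5.42% and 11.0% without shNC replicate 1 or 2. Without each library in turn the log2 fold change of JAG1 was 0.62 to 0.64. The adjusted p of these 4 fits, 0.00096 to 0.00589, rests on the spread of the 1 group that still had a pair and says little about the stability of the call.

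**Figure D5:**
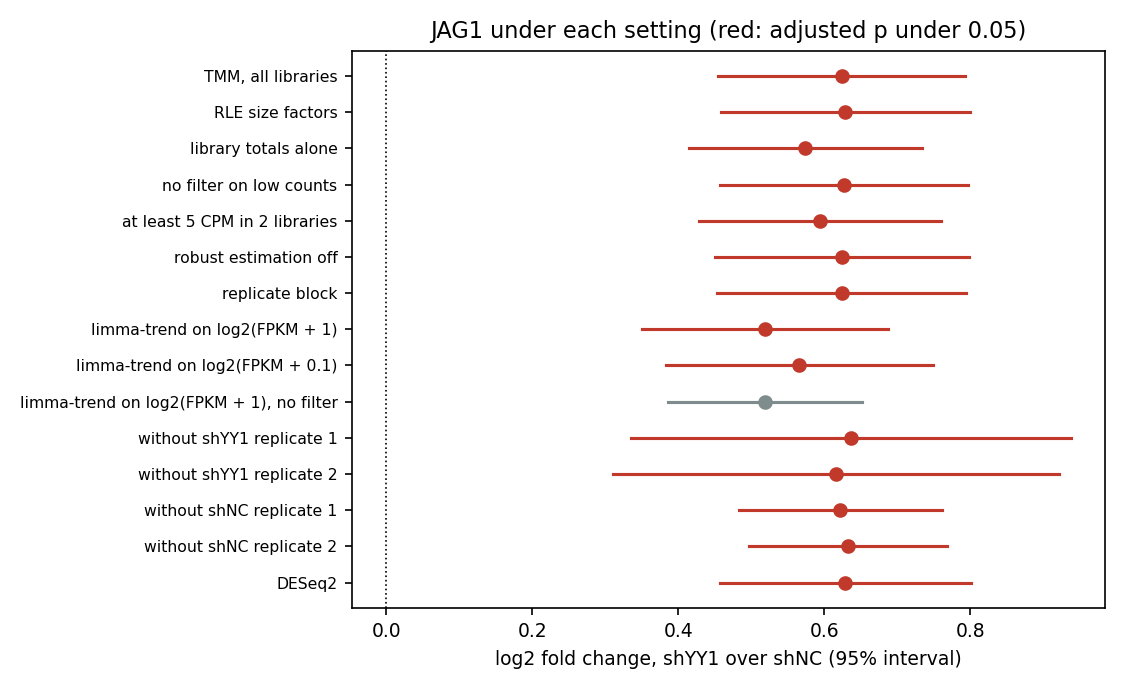
Log2 fold change of JAG1, shYY1 over shNC, with its 95% interval under the 15 settings; red marks an adjusted p under 0.05. The values lie between 0.52 and 0.64 and all intervals lie above 0.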

How the data were processed

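RNA was measured in 4 KYSE30 libraries, 2 per group, assigned by the sample descriptions. The authors deposited whole-number counts and FPKM values per gene, per the file headers, with 0 columns of other samples. Bowtie 0.12.2 and the mouse builds mm8 and mm9 are named, per the submitters' processing notes, whereas the table holds human Ensembl IDs. The aligner, counter, strand setting and build of this table are therefore not given in the sources used here.

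Counts were tested with edgeR 4.0.16 (R 4.3.3): filterByExpr (minimum count 10, minimum total 15), TMM factors (0.98 to 1.04), robust quasi-likelihood fit with 2 residual degrees of freedom, and Benjamini-Hochberg adjustment over 18035 genes at 0.05. Standard errors are the log2 fold change over the root of F, and 95% intervals use the fit's degrees of freedom. CPM values are TMM-scaled. Tested on simulated data of this size with 200 genes changed, fewer than were called here, the procedure recovered 35.5% of changes of 1.5-fold and 59% of 2-fold. It made 30 false calls beside 71 true ones at 1.5-fold, and 22 beside 118 at 2-fold. False calls thus made up a larger share of all calls than the threshold of 0.05 allows, at both sizes. A count of 3, as a floor, equals 0.0414 to 0.0445 CPM, for counting error only.

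Alternatives were RLE factors, library totals alone, 2 other filters, DESeq2 1.42.0, no robust estimation, limma-trend 3.58.1 on log2(FPKM + 1) and log2(FPKM + 0.1), the replicate number as a block, and each library left out. Lengths came from GENCODE 29.

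Members and lists were chosen with earlier results of these data known. Named are all members, YY1, in each list up to 4 called genes of lowest adjusted p and at most 2 called the other way, or the 2 most abundant where none was called, genes overlapping or copying a member, and the 3 genes nearest to a called member in pattern. GXYLT1, LFNG, MIB1, SPEN, NCOR1, NRARP, HES2, HES4, HES6, HES7 and HEY2 were added after their values were seen. Some genes of the lists that the rule would name are not reported here.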

Additional observations from a re-analysis of the deposited data

How the results depend on the processing

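Of the 10 members, JAG1 alone was called under any setting, and it was called higher in 13 of 14 alternatives. Limma-trend on log2(FPKM + 1) without a filter on low values called 0 members and 0 of 27511 genes in either direction, with 4391 genes at an unadjusted p under 0.05, whereas with the filter it called 671 genes higher and 843 lower. Over all genes, edgeR called 910 higher and 883 lower, and DESeq2 called 1470 higher. Leaving out 1 library, which leaves its group with a lone library assumed to vary like the other group, gave 425 to 2097 genes higher and 595 to 1207 lower. Of the 4 libraries, shYY1 replicate 1, shYY1 replicate 2 and shNC replicate 2 each moved the count of higher genes by more than 1.5 times (425, 429 and 2097 without them). The share of higher genes among those called was 50.8%, against 40.3% with library totals alone and 37.2% to 63.5% without 1 library. The cause was not tested.

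With the replicate number as a block, edgeR called 1475 genes higher and 1427 lower, and JAG1 remained the 1 member called (log2 fold change 0.62, adjusted p = 0.000141). Across all tested genes, low ones included, the deviations of same-numbered libraries from their group means had a correlation of 0.00395. With 2 libraries per group this is 1 value for both numbers. Whether libraries of the same number shared a batch was not tested.

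MAML1, near 0, changed sign in 7 alternatives: library totals alone (-0.0397), at least 5 CPM in 2 libraries (-0.0193), limma-trend on log2(FPKM + 1) with and without the filter (both -0.0386) and on log2(FPKM + 0.1) (-0.0407), and 2 fits that left out a library, over which it ranged from -0.0365 to 0.0671. RBPJ ranged from -0.25 to 0.17 and HEY1 from -0.00225 to 0.31 with a library left out, each changing sign once. The other 7 members kept their direction in every alternative that tested them, but with a library left out DLL1 ranged from -0.70 to -0.25, NOTCH3 from -0.26 to -0.08, HES1 from -0.14 to -0.00246 and JAG2 from 0.0087 to 0.17. DLL1 is limited by its 173 to 306 counts per library and fell under the filters at 5 CPM and at 1 FPKM.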
